A study of Mus musculus with 8 samples.

Results

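The 10 genes described here code for the calcium-dependent phosphatase calcineurin, its inhibitor Rcan1, the NFAT transcription factors that it activates and the calsarcins that hold it at the Z-disc. They were chosen by name: Ppp3ca, Ppp3cb, Ppp3r1, Rcan1, Nfatc1, Nfatc2, Nfatc3, Nfatc4, Myoz1 and Myoz2. Each matched 1 probe set, so they are 10 of 21212 probe sets. The arrays were run on gastrocnemius and plantaris muscle of wild type female C57BL/6J mice aged 7 weeks. In 4 mice the hind limbs had been raised off the cage floor for 5 days (unloaded), and 4 mice bore weight on all limbs (weight bearing). No transgene or deletion was carried by either group, and each array holds the RNA of both muscles with every cell type in them, so fewer cells of a type and less RNA per cell cannot be told apart. Values are log2 expression values made by the authors with robust multi-array analysis, and a difference of 1 is a doubling.

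Calcineurin is a heterodimer of a catalytic subunit (Ppp3ca, Ppp3cb or Ppp3cc) and a calcium-binding regulatory subunit (Ppp3r1 in most tissues), and it is switched on by calcium and calmodulin. It removes phosphates from NFAT proteins, which then enter the nucleus until kinases phosphorylate them again. In skeletal muscle the sustained calcium of tonic activity drives this pathway, which favours slow-fibre genes. Because the switch is a phosphate and a move into the nucleus, the amount of RNA measured here is not a reading of calcineurin or NFAT activity.

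Of the 10 genes, 1 (Nfatc2) was higher and 0 were lower in unloaded muscle at a limma adjusted p under 0.05, against 12.8% of all probe sets called higher and 11.0% called lower (23.8% in all). At an unadjusted limma p under 0.05 there were 1 higher (Nfatc2) and 1 lower (Rcan1), against 37.4% of all probe sets in either direction. The methods' t-test, with Benjamini-Hochberg adjustment in place of the authors' q-value, called 0 of them and 13.0% of all probe sets. Without adjustment it gave 3 of them (Nfatc2, Nfatc3 and Nfatc4), against 32.2% of all probe sets. The log2 changes, unloaded minus weight bearing, ran between -0.28 (Rcan1) and 0.23 (Nfatc2), with 3 above and 7 below 0 and a median of -0.05, where the median over all probe sets was 0.04. All of the 95% intervals lay between -0.49 and 0.39, which bounds each gene at 1.41-fold lower and 1.31-fold higher in unloaded muscle. The 2 intervals that excluded 0 were those of Nfatc2 and Rcan1. The groups did not overlap for 2 genes that lay higher in unloaded muscle (Nfatc2 and Nfatc4) and 1 that lay lower (Rcan1), against 27.5% of all probe sets in either direction.

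**Figure D1:**
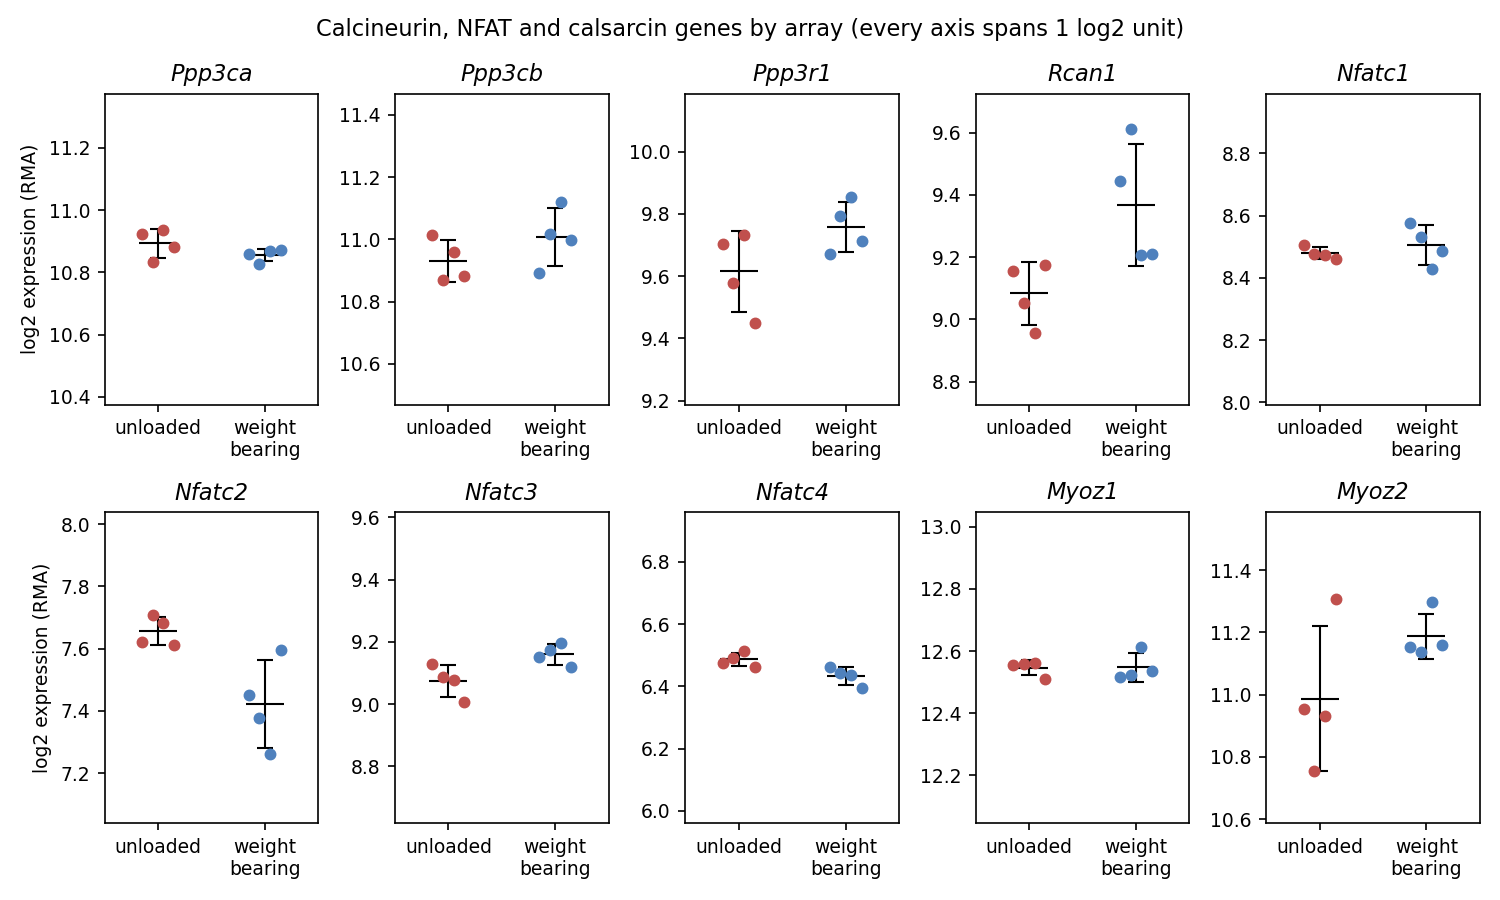
Log2 expression of the 10 genes in each array, unloaded muscle in red at the left and weight bearing muscle in blue at the right, with the mean and SD of 4 arrays in black. Each vertical axis spans 1 log2 unit, and Nfatc2, Rcan1 and Nfatc4 are the genes whose groups do not overlap.

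The catalytic subunits of the enzyme were measured first. Ppp3ca, the alpha catalytic subunit, had 10.92, 10.83, 10.94 and 10.88 in unloaded muscle, against 10.86, 10.83, 10.87 and 10.87 in weight bearing muscle. The groups overlapped, and the change was 0.04 (95% interval -0.06 to 0.14, limma adjusted p = 0.585). Ppp3cb, the beta catalytic subunit, had 11.01, 10.87, 10.96 and 10.88 in unloaded muscle, against 10.89, 11.02, 11.12 and 10.997 in weight bearing muscle. These groups overlapped as well, with a change of -0.08 (interval -0.21 to 0.06, adjusted p = 0.377). Ppp3cc, the third catalytic gene, known chiefly from testis and brain, is outside the chosen 10 and was the only catalytic gene called. It had 8.94, 8.66, 8.79 and 8.82 in unloaded muscle, against 8.44, 8.26, 8.55 and 8.49 in weight bearing muscle. Every unloaded array was above every weight bearing array, and the rise was 1.29-fold (log2 change 0.37 ± 0.08, SE, n = 4 arrays each, limma adjusted p = 0.00717, the methods' t-test 0.0440).

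Ppp3r1, the regulatory subunit that binds calcium, had 9.70, 9.58, 9.73 and 9.45 in unloaded muscle, against 9.67, 9.79, 9.85 and 9.71 in weight bearing muscle. The lowest arrays were unloaded replicates 4 and 2 and the groups overlapped, with a change of -0.14 (interval -0.30 to 0.02, limma adjusted p = 0.173). Its paralog Ppp3r2, a testis form, was near the bottom of the array's range in both groups, at 3.12 ± 0.05 in unloaded and 3.07 ± 0.07 in weight bearing muscle (SD, n = 4 arrays each, change 0.05, adjusted p = 0.548).

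Rcan1 binds calcineurin and inhibits it, and the gene is itself a textbook target of NFAT, which acts on a start site inside the gene. The deposited data hold 1 Rcan1 probe set, whose annotation lists 2 RefSeq transcripts, so the starts cannot be told apart. The sequences around both are shown because they differ in the NFAT core motif. They come from RefSeq (GRCm38.p6, minus strand of chromosome 16, from 250 bases before to 50 bases after the start, printed 5′ to 3′), and capitals mark GGAAA and its reverse complement TTTCC.
Rcan1 outer start, chr16:92466120-92466419: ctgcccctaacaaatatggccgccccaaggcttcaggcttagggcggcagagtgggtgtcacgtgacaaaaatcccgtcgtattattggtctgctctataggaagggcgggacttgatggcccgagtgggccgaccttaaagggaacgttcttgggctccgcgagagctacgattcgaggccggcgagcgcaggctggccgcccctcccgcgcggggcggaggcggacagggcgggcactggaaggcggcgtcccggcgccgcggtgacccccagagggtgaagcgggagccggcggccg
Rcan1 inner start, chr16:92400029-92400328: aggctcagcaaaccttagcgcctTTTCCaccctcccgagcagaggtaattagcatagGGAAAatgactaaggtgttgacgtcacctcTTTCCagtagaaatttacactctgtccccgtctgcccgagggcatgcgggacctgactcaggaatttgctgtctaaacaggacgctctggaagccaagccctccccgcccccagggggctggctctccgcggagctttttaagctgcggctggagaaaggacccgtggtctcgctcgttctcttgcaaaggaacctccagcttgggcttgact
The inner window held 3 matches and the outer window 0. Of 32851 promoter windows of the same length, 61.3% held at least 1 match and 9.42% held at least 3, so a match is a description of the letters and marks no binding site.

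In unloaded muscle Rcan1 had 9.15, 9.05, 8.96 and 9.17, against 9.44, 9.61, 9.21 and 9.21 in weight bearing muscle. All 4 unloaded arrays were below all 4 weight bearing arrays, as in 12.0% of all probe sets, but weight bearing replicates 3 and 4 lay only just above the highest unloaded array. The change was -0.28 ± 0.09 (SE, n = 4 arrays each, interval -0.49 to -0.07), and the limma adjusted p was 0.0520, so the difference missed the threshold (the methods' t-test, adjusted p = 0.167). Without weight bearing replicate 3 or weight bearing replicate 4 it passed (limma adjusted p = 0.0372 and 0.0365). Weight bearing replicates 1 and 2, which were high for Rcan1, were also the 2 highest arrays in the mean log2 level of several lists. These were the endothelial markers (8.95 and 8.99, against 8.79 and 8.87 in weight bearing replicates 3 and 4) and the macrophage markers (7.77 and 7.88, against 7.59 and 7.65). The fibroblast markers (10.075 and 10.196, against 9.916 and 9.939) and the slow-fibre genes (10.60 and 10.57, against 10.51 and 10.54) were the others. The T lymphocyte, satellite cell and skeletal muscle markers and the fast-fibre genes did not have both as their highest arrays. The share of all probe sets with weight bearing replicates 1 and 2 highest was not computed, so this match has no background to be set against. The part of any of these cells in the Rcan1 values was not tested.

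The other regulators of the same family, also outside the chosen 10, went different ways. Rcan2, which binds and inhibits calcineurin as Rcan1 does, had 8.09, 8.05, 7.88 and 8.06 in unloaded muscle, against 8.56, 8.55, 8.66 and 8.54 in weight bearing muscle. The groups stood well apart, and Rcan2 was 1.47-fold lower (log2 change -0.56 ± 0.06, SE, n = 4 arrays each, limma adjusted p = 1.72e-04, the methods' t-test 0.0102). Rcan3 had 6.76 ± 0.07 in unloaded and 6.68 ± 0.07 in weight bearing muscle (SD, n = 4 arrays each), with overlapping groups and a change of 0.08 (interval -0.05 to 0.20, adjusted p = 0.327).

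**Figure D2:**
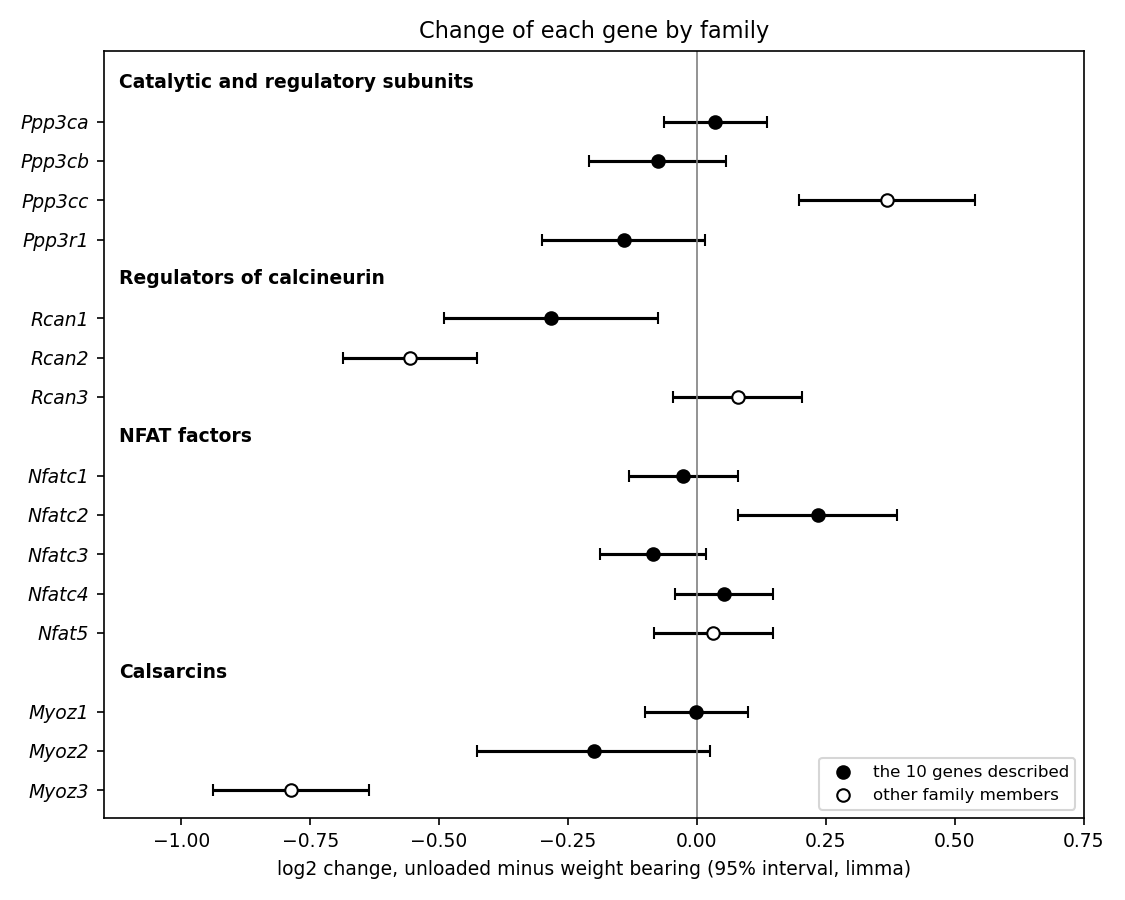
Log2 change (unloaded minus weight bearing) with its 95% limma interval for the 10 genes (filled) and their family members outside the 10 (open). The filled points lie between -0.28 and 0.23, and Ppp3cc (0.37), Rcan2 (-0.56) and Myoz3 (-0.79) lie outside that range.

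Of the 4 calcineurin-dependent NFAT factors, Nfatc2 was called higher in unloaded muscle and the others were not called. Nfatc2, first known from T cells and in mouse muscle from the growth of young myotubes, had 7.62, 7.71, 7.68 and 7.61 in unloaded muscle, against 7.45, 7.38, 7.26 and 7.60 in weight bearing muscle. The unloaded arrays were close together, the weight bearing arrays spread more widely, and weight bearing replicate 4 lay only just below the lowest unloaded array. The groups did not overlap, as in 15.5% of all probe sets in this direction, and the rise was 1.18-fold (log2 change 0.23 ± 0.07, SE, n = 4 arrays each, interval 0.08 to 0.39, limma adjusted p = 0.0340). The exact two-sided permutation p of the single gene was 0.0286, the smallest that 4 against 4 arrays can give. The methods' t-test did not call it (adjusted p = 0.133). Leaving out 1 array ended the limma call without unloaded replicate 2 (adjusted p = 0.0857), 3 (0.0785) or 4 (0.0551) and without weight bearing replicate 1 (0.0603), 2 (0.0794) or 3 (0.0739), while the change stayed between 0.18 and 0.29.

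The RefSeq table holds 2 start sites of Nfatc2, and the outer one is shown because it carries 3 matches to the NFAT core (capitals as above, GRCm38.p6, minus strand).
Nfatc2 outer start, chr2:168601608-168601907: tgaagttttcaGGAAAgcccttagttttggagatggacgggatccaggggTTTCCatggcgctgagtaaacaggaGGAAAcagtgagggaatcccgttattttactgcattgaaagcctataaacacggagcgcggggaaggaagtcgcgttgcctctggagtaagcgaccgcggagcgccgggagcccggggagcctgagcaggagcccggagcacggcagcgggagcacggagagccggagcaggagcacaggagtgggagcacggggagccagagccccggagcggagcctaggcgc
The inner window of Nfatc2 held 1 match. Among the other windows of the chosen genes, Ppp3cb held 4 matches, Nfatc4 3, Myoz2 2, the 2 windows of Nfatc3 1 and 0, and Ppp3r1 0. In all, 10 windows of 7 of the 10 genes were searched, and Ppp3ca, Nfatc1 and Myoz1 were not.

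By the distance between log2 profiles over the 8 arrays, each gene set to its own mean, the named genes most like Nfatc2 were Slc27a5 (distance 0.101), Klhl21 (0.102) and Fanca (0.114). Their log2 changes were 0.23, 0.24 and 0.21.

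Nfatc1, the NFAT factor tied to slow-fibre genes in mouse and rat muscle, had 8.51, 8.48, 8.47 and 8.46 in unloaded muscle, against 8.58, 8.53, 8.43 and 8.48 in weight bearing muscle. The groups overlapped and the change was -0.03 (interval -0.13 to 0.08, limma adjusted p = 0.712). Nfatc3, which is also expressed in muscle, had 9.13, 9.09, 9.08 and 9.01 in unloaded muscle, against 9.15, 9.17, 9.20 and 9.12 in weight bearing muscle. Only unloaded replicate 1 reached into the weight bearing range, and the change was -0.09 (interval -0.19 to 0.02, adjusted p = 0.208). Nfatc4 had 6.48, 6.49, 6.51 and 6.46 in unloaded muscle, against 6.46, 6.44, 6.44 and 6.39 in weight bearing muscle. The lowest unloaded and the highest weight bearing array were both at 6.46 when rounded, and although the groups did not overlap the change was only 0.05 (interval -0.04 to 0.15, adjusted p = 0.393). Nfat5, the relative that calcineurin does not control, changed by 0.03 (interval -0.08 to 0.15, adjusted p = 0.684).

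Calsarcins are Z-disc proteins that bind both alpha-actinin and calcineurin. Myoz1, calsarcin-2 of fast fibres, was among the brightest probe sets and had 12.55, 12.56, 12.56 and 12.51 in unloaded muscle, against 12.52, 12.52, 12.61 and 12.54 in weight bearing muscle. The groups lay on top of each other, with a change of -0.00097 and an interval of -0.10 to 0.10 (limma adjusted p = 0.989), so a change of 1.1-fold or more in either direction lay outside the interval.
Myoz2, calsarcin-1 of slow fibres and heart, had 10.95, 10.75, 10.93 and 11.31 in unloaded muscle, against 11.15, 11.14, 11.30 and 11.16 in weight bearing muscle. Of the unloaded arrays 3 lay below every weight bearing array and unloaded replicate 4 lay above all of them, so that Myoz2 had the widest unloaded spread of the 10 genes (SD 0.23, n = 4 arrays). The change was -0.20 (interval -0.43 to 0.03, limma adjusted p = 0.178), and without unloaded replicate 4 it was -0.31 and passed the test (adjusted p = 0.0147).
Myoz3, calsarcin-3 of fast fibres, is outside the chosen 10. It had 9.91, 9.76, 10.09 and 9.86 in unloaded muscle, against 10.70, 10.68, 10.74 and 10.66 in weight bearing muscle. It was 1.73-fold lower without overlap (log2 change -0.79 ± 0.07, SE, n = 4 arrays each, limma adjusted p = 5.02e-05, the methods' t-test 0.0191).

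Unloaded replicate 4, the array that was high for Myoz2, was also high for genes of slow fibres. Of 10 slow-fibre genes, 9 had their highest unloaded value in that array, against 23.0% of all probe sets and 0 of 9 fast-fibre genes. Myl2, the slow regulatory light chain of myosin, had 9.45, 9.38, 9.96 and 10.47 in unloaded muscle, against 10.76, 10.77, 10.95 and 10.85 in weight bearing muscle. Myl3, the slow essential light chain, had 9.75, 9.82, 10.28 and 10.62 in unloaded muscle, against 11.07, 11.00, 11.09 and 11.06 in weight bearing muscle. Both were lower in all 4 unloaded arrays, by 2.02 and 1.92-fold (limma adjusted p = 0.00544 and 0.00277), though the methods' t-test called neither (adjusted p = 0.106 and 0.0892). The mean log2 level over the 10 slow-fibre genes was 9.88, 9.89, 10.12 and 10.36 in unloaded muscle, against 10.60, 10.57, 10.51 and 10.54 in weight bearing muscle. Whether the amount of slow-fibre tissue in each sample had a part in the Myoz2 values was not tested.

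**Figure D3:**
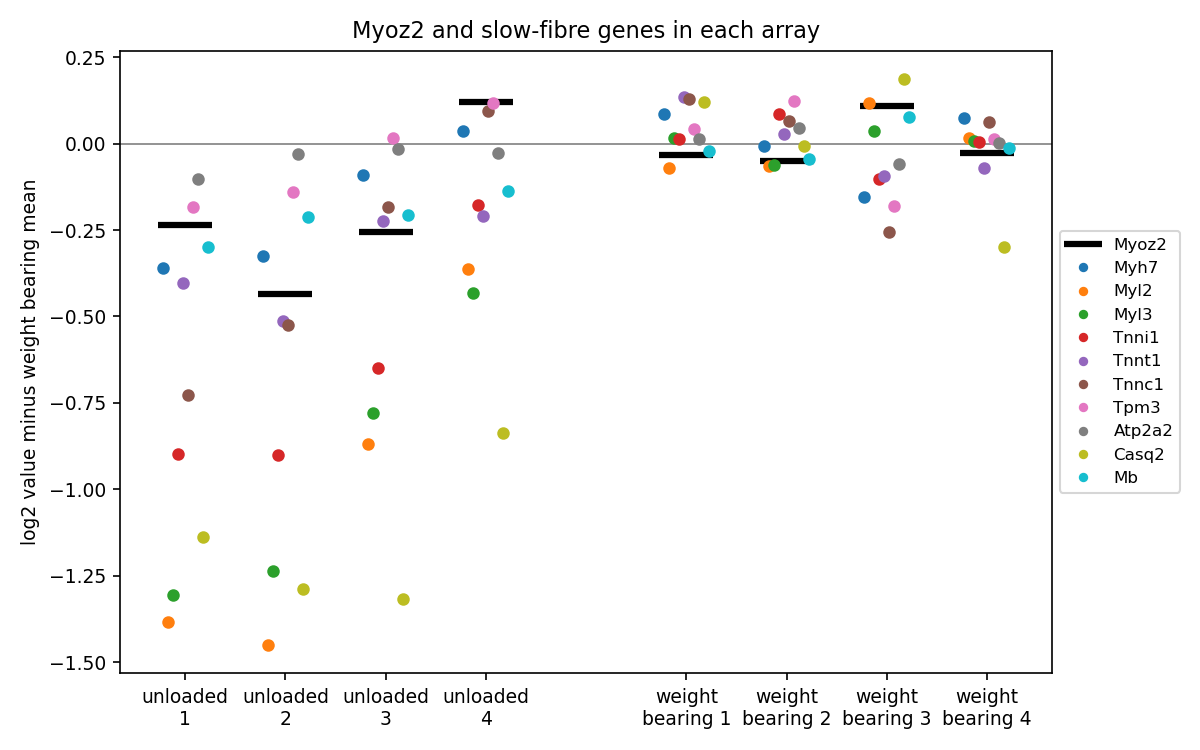
Myoz2 (black bars) and 10 slow-fibre genes (coloured points) in each array, as log2 value minus the gene's weight bearing mean. In unloaded replicates 1 to 3 Myoz2 lies below 0 with most slow-fibre genes, and in unloaded replicate 4 it lies above 0, where most of the slow-fibre genes have their highest unloaded value.

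Whether paralogs changed unequally was compared within arrays, as the difference of 2 genes' log2 values, for all 15 pairs within the 4 families. These pairs were set up after the values were seen. In 8 of the 15 pairs the exact two-sided permutation p was 0.0286, the smallest possible with 4 against 4 arrays. It is 0.0536 after Benjamini-Hochberg adjustment over the 15 pairs and so did not pass. With 8 pairs at that smallest p none could pass, whatever its size, so the adjusted p cannot decide whether a pair changed unequally. The largest differences of change were Myoz3 minus Myoz1 (-0.79 ± 0.07, SE), Rcan2 minus Rcan3 (-0.63 ± 0.10), Myoz3 minus Myoz2 (-0.59 ± 0.13) and Ppp3cc minus Ppp3cb (0.44 ± 0.08). For Rcan2 minus Rcan1 the difference was -0.27 ± 0.12 (exact permutation p = 0.0571, 0.0857 over the pairs), and for Nfatc2 minus Nfatc4 it was 0.18 ± 0.08 (exact permutation p = 0.114, 0.132 over the pairs).

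Around the 10 genes, further genes were listed by role. Of 44 measured regulators, NFAT kinases and partners, Z-disc proteins and calcium entry genes, limma called 6 higher and 10 lower in unloaded muscle, 36.4% against 23.8% of all probe sets. Of 19 genes that mark slow or fast fibres, it called 0 higher and 9 lower (47.4%). Of 12 other subunits and regulators of calcineurin, 2 were higher and 2 lower (unadjusted, 3 and 3, and 2 and 2 with the methods' t-test). The median of their log2 changes was 0.04. The higher ones were Ppp3cc and Chp1, a calcineurin-like protein that inhibits the phosphatase (1.15-fold, 10.58 ± 0.05 in unloaded and 10.38 ± 0.06 in weight bearing muscle, SD, n = 4 arrays each, limma adjusted p = 0.0131). Lower were Rcan2 and Calm3, 1 of the genes for calmodulin (1.13-fold, 10.73 ± 0.04 in unloaded and 10.91 ± 0.04 in weight bearing muscle, adjusted p = 0.0213). The call of Calm3 was lost without unloaded replicate 2 (0.0594), weight bearing replicate 1 (0.0588) or weight bearing replicate 2 (0.0512).

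Of 17 kinases, export factors and partners of NFAT, 4 were higher and 5 lower (unadjusted, 4 and 5, and 3 and 3 with the methods' t-test), and their median log2 change was 0.02. Kinases that return NFAT to its phosphorylated form moved in both directions. All 4 genes called higher were such kinases, and of the 5 called lower Dyrk2 and Mapk14 were. Csnk1e, a casein kinase, rose 1.22-fold (10.19 ± 0.03 in unloaded and 9.90 ± 0.06 in weight bearing muscle, SD, n = 4 arrays each, limma adjusted p = 0.00187) and Gsk3b, glycogen synthase kinase 3 beta, rose 1.17-fold (10.08 ± 0.07 in unloaded muscle, 9.85 ± 0.07 in weight bearing muscle, adjusted p = 0.0142). Dyrk2 was 1.25-fold lower (adjusted p = 0.0442, the methods' t-test 0.137). That call was lost without unloaded replicate 2 (0.114), 3 (0.0929) or 4 (0.104) or weight bearing replicate 1 (0.105) or 2 (0.101). Mapk14, the p38 alpha kinase, fell 1.33-fold (9.98 ± 0.05 in unloaded muscle, 10.39 ± 0.11 in weight bearing muscle, adjusted p = 0.00134). Homer2, a scaffold that competes with calcineurin for NFAT, was 1.32-fold lower (adjusted p = 0.00131), and Xpo1, the exportin that carries NFAT out of the nucleus, 1.25-fold (adjusted p = 0.00297). With 1 array left out, 2 or 3 genes of this group were called higher and 3 to 5 lower. The count of 2 was reached without any unloaded array or without weight bearing replicate 1 or 2, and that of 3 lower without unloaded replicate 2 or 4 or weight bearing replicate 2.

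Of 7 Z-disc proteins, which are Myoz3 and 6 partners of calsarcins, 0 were higher and 3 lower (unadjusted, 1 and 4, and 1 and 2 with the methods' t-test). The median of their log2 changes was -0.17, and -0.05 without Myoz3. Beside Myoz3 these were Ldb3, a PDZ and LIM protein that binds alpha-actinin (1.19-fold, limma adjusted p = 0.00517), and Flnc, filamin C (1.23-fold, adjusted p = 0.0353). The call of Flnc was not made by the methods' t-test (0.120) and was lost with its pooled-variance form (0.0990), after quantile normalization (0.0553), with the replicate number as a block (0.0539) and without unloaded replicate 1 (0.0641) or 3 (0.0922) or weight bearing replicate 2 (0.0879) or 3 (0.0869). Of 8 calcium entry channels and sensors limma called 0 higher and 0 lower (unadjusted p under 0.05, 1 and 1, and 0 and 0 with the methods' t-test). The nearest was Orai2, a subunit of store-operated channels, at 3.21 ± 0.13 in unloaded and 3.63 ± 0.36 in weight bearing muscle (SD, n = 4 arrays each, adjusted p = 0.0707), which passed without weight bearing replicate 2 (0.00985). Only 8.5% of all probe sets had a lower mean than Orai2, so these values lie near the bottom of the array's range. Trpc4, a cation channel, had 5.07 ± 0.12 in unloaded and 4.90 ± 0.10 in weight bearing muscle (adjusted p = 0.132).

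Slow-fibre genes are those that calcineurin and NFAT are known to favour. Of 10, 0 were higher and 6 lower by limma (unadjusted, 0 and 6, and 0 and 2 with the methods' t-test), and the median log2 change was -0.34. Over all probe sets 12.8% were called higher and 11.0% lower. Not called were Myh7, the slow myosin heavy chain (log2 change -0.18, limma adjusted p = 0.177), Tnnc1 (-0.34, 0.153), Tpm3 (-0.05, 0.706) and Atp2a2 (-0.04, 0.515). Casq2, the calsequestrin of slow fibres and heart, fell 2.21-fold (7.76 ± 0.22 in unloaded muscle, 8.91 ± 0.22 in weight bearing muscle, SD, n = 4 arrays each, limma adjusted p = 2.00e-04). Mb, myoglobin, was 1.16-fold lower (adjusted p = 0.0147). The slow troponins Tnni1 and Tnnt1 were 1.58 and 1.26-fold lower (limma adjusted p = 0.00785 and 0.0131), and the methods' t-test called neither (0.110 and 0.0678). Without unloaded replicate 4, 7 of the 10 were lower. Of 9 fast-fibre genes, 0 were higher and 3 lower (unadjusted, 0 and 4, and 0 and 4 with the methods' t-test), and their median was -0.10. Mylpf, the fast regulatory light chain, was 1.26-fold lower (adjusted p = 9.91e-04) and Casq1, the fast calsequestrin, 1.25-fold (6.19e-04). Pvalb, the calcium buffer parvalbumin, was 1.11-fold lower (12.98 ± 0.03 in unloaded muscle, 13.13 ± 0.05 in weight bearing muscle, limma adjusted p = 0.0418). Its call was lost after quantile normalization (log2 change -0.087, adjusted p = 0.184), with the replicate number as a block (0.0666) and with any array left out (0.0606 to 0.104) other than weight bearing replicate 4.

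**Figure D4:**
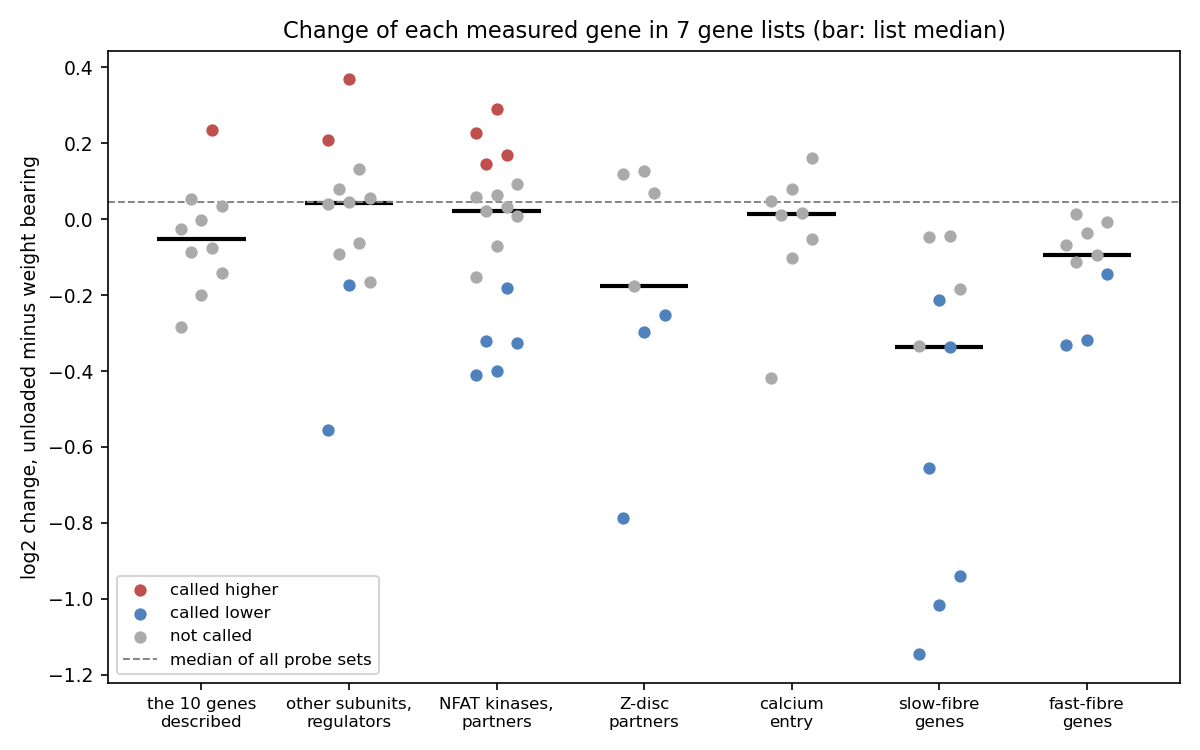
Genes measured in 7 lists by their log2 change between unloaded and weight bearing muscle, a point for each gene, red where limma called it higher and blue where lower, with each list's median as a black bar and the median of all probe sets (0.04) as a dashed line. The 10 genes lie between -0.28 and 0.23, and the slow-fibre genes have a median of -0.34.

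The tissue and the other cell types it could hold were checked by their markers. Of 6 skeletal muscle genes, all had group means between 12.15 and 13.25, with Des (desmin) called higher (log2 change 0.24, limma adjusted p = 0.00319) and Acta1 (skeletal actin) lower (-0.15, 0.0288). Markers of T lymphocytes, which use Nfatc2, were not called (0 higher and 0 lower of 6 by limma, 2 and 1 by the unadjusted p, 0 and 0 with the methods' t-test), and their summed linear level was 198.0 to 213.1 in unloaded and 200.4 to 218.7 in weight bearing muscle. Of the 6, Ptprc, a gene of all leukocytes, had a log2 change of -0.34. The other 5 (Cd3d, Cd3e, Cd3g, Cd4 and Cd8a) had changes above 0, as 61.4% of all probe sets did. Their median was 0.13 and 0 of the 5 were called, and Ptprc was set apart after the values were seen. Among the 5, Cd3g, at 3.47 in unloaded and 3.26 in weight bearing muscle, lay near the bottom of the array's range. Cd3d (4.07 and 3.92) and Cd4 (4.95 and 4.91) were dim as well, and all 5 lay below the array medians of 6.28 to 6.33. The summed level of these 5 was 138.8 to 151.3 in unloaded and 132.1 to 139.5 in weight bearing muscle, and their part in the Nfatc2 values was not tested. Of 6 endothelial markers 2 were lower (summed level 2924 to 3066 in unloaded and 3099 to 3532 in weight bearing muscle), of 5 macrophage markers 5 were lower (724.0 to 836.0 unloaded, 1044 to 1287 weight bearing), of 6 fibroblast markers 4 were lower (6693 to 6946 unloaded, 9650 to 11071 weight bearing), and of 4 satellite cell markers 2 were higher and 1 lower (641.0 to 690.6 unloaded, 500.1 to 534.4 weight bearing). No marker was at 0, since the values have a background level, and the part of these cells in the changes of the pathway was not tested.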

How the data were processed

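Total RNA of gastrocnemius and plantaris muscle was hybridised to Affymetrix Mouse Gene 1.0 ST arrays, 1 independent RNA sample per array, 4 unloaded and 4 weight bearing. The authors summarised the 8 arrays by RMA (robust multi-array analysis) on a Brainarray custom probe set definition and deposited log2 values per Entrez gene. The definition's release, its build and the RMA version were not given in the sources used here. All 8 columns were used and 0 were left out. Array medians lay between 6.28 and 6.33, arrays of 1 group correlated at 0.996 to 0.997 and arrays of different groups at 0.992 to 0.994, and 0 pairs of arrays were identical. RMA equalises the arrays and would hide a shift of all genes together.

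Of 21212 probe sets, 18786 have 1 gene symbol, 6 several and 2420 none in the platform annotation used, which was updated through Entrez IDs to RefSeq symbols (GRCm38.p6). No value was scaled again or filtered. The comparison used limma 3.58.1 under R 4.3.3 (two-sided, lmFit then eBayes). The limma and t-test p-values were adjusted by Benjamini-Hochberg over all probe sets of each run, unless given as unadjusted. An adjusted p under 0.05 was a call. Exact permutation p-values were left unadjusted for single genes and were adjusted over the 15 pairs for paralogs. The authors set both a p-value and a q-value limit for their t-test. That q-value was not computed here, so calls given under the methods' t-test are not the authors' own. Folds are differences of mean log2 values turned back to the linear scale. The labels call the samples biological replicates, and precision rests on there being 4 arrays a group. Single values were also compared by exact permutation of the 8 arrays. Counts were made with pandas 2.3.3 and numpy 2.4.6 and figures with matplotlib 3.10.9 (Python 3.11.15). The fit was tested on simulated arrays.

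The 10 genes, the pathway and marker lists and the tests were chosen with earlier results of these data known. All 10 genes are described, and from each pathway list up to 6 called genes with the largest change, or the 2 with the smallest p where none passed. For each called gene of the 10, the 3 named genes with the nearest profile are given. The comparisons of paralogs, the split of the lists, the named marker genes, and the values of Rcan3, Nfat5 and Ppp3r2, were added after the values were seen. Some genes of the pathway and marker lists are not analysed here. Alternatives were the methods' t-test (unequal variances), the same with pooled variance, limma with an intensity trend and robust variance, array weights, quantile normalization, array medians set to 0, dropping the 25% or 50% of probe sets with the lowest mean, a block for the replicate number, dropping every array once, and no adjustment of p.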

Additional observations from a re-analysis of the deposited data

Results flagged for a closer look

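Among 74 groups of 4 arrays (37 genes, both conditions), 6 held an array farther from the rest than Dixon's 95% limit allows, and chance flags about 1 in 20 groups. Of the 10 genes, Myoz1 was low in unloaded replicate 4 (12.51, where the others lay at 12.55 to 12.56) and Myoz2 was high in weight bearing replicate 3 (11.30, where the others lay at 11.14 to 11.16). Rcan2 was low in unloaded replicate 3 (7.88) and high in weight bearing replicate 3 (8.66). Chp1 was high in unloaded replicate 4 (10.66), and Ppp3r2 was low in weight bearing replicate 4 (2.96).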

How the results depend on the processing

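Ppp3ca, Ppp3cb, Ppp3r1, Nfatc1, Nfatc3, Nfatc4 and Myoz1 were not called under any alternative run, limma's unadjusted p included (without adjustment the methods' t-test gave p under 0.05 for Nfatc3 and Nfatc4). Nfatc2 (log2 change 0.23) was not called by the methods' t-test (adjusted p = 0.133), by its form with pooled variance (0.0780) or with the replicate number as a block (0.0604). With 1 array left out its change lay between 0.18 and 0.29 (limma adjusted p between 0.00971 and 0.0857). Rcan1 (-0.28) passed with an intensity trend (0.0439), array weights (change -0.30, adjusted p = 0.0368), array medians set to 0 (change -0.29, 0.0460), without the dimmest 25% (0.0403) or 50% (0.0318) of probe sets, with the block (0.0498) and at the unadjusted p (0.0126). With 1 array left out it lay between -0.34 and -0.20 (adjusted p between 0.0365 and 0.130). Myoz2 passed under 1 alternative, without unloaded replicate 4, and lay between -0.31 and -0.12 with 1 array left out. The cause of these shifts was not tested.

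Over all probe sets the counts were 2715 higher and 2324 lower, 1393 and 1374 by the methods' t-test, and 4669 higher at an unadjusted p, with 1802 to 2852 higher and 1833 to 2206 lower with 1 array left out (1802 without unloaded replicate 3). Other counts that moved by more than 1.5 times were these. NFAT kinases and partners had 2 higher with the block (2 to 3 with 1 array left out) and 3 lower by the methods' t-test (3 to 5 with 1 array left out). Z-disc partners had 1 higher by either form of the methods' t-test, with the intensity trend, without the dimmest 50% and at the unadjusted p, and 2 after quantile normalization. Calcium entry genes had 1 higher and 1 lower at the unadjusted p, and 1 lower with the block (0 to 1 with 1 array left out). Other calcineurin subunits and regulators had 1 to 3 lower with 1 array left out (1 without unloaded replicate 2 or weight bearing replicate 1 or 2). Slow-fibre genes had 2 lower by the methods' t-test, and fast-fibre genes 5 by its form with pooled variance and with the intensity trend.

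Same-numbered arrays are not stated to share anything but the number. The correlations of their deviations from the group means were 0.024, 0.037, 0.12 and 0.095. Unloaded replicates 3 and 4 deviated most like the weight bearing array of their own number, and unloaded replicate 1 most like weight bearing replicate 3 (0.10). Unloaded replicate 2 was about equally like weight bearing replicates 2 (0.037) and 1 (0.036). The block gave 2455 higher and 2213 lower probe sets. Each of the 10 genes has 1 probe set, so averaging several did not apply.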
